A study of Mus musculus with 6 samples.

Results

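The apolipoprotein L (Apol) genes Apol6, Apol7c, Apol8, Apol9a, Apol9b and Apol10b were followed in RNA from tumor-associated macrophages (TAMs). They are 6 of the 22377 genes in the count table, which lists 11 Apol genes in all, and they were found by their symbols. The set was chosen with the wt and ko values of these same libraries in view, so their wt to ko differences are given as a description without a test. Apolipoprotein L proteins bind lipids and, for most members, stay inside the cell at intracellular membranes, unlike the apolipoproteins of plasma lipoproteins. Several members are induced by interferons. Type I interferon acts on genes through interferon-stimulated response elements, and interferon-gamma acts through GAS elements.

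The study asked what Npm1, a nucleolar chaperone, does in TAMs of subcutaneous LLC (Lewis lung carcinoma) tumors. Of the 6 libraries, 3 carry the label wt and 3 carry the labels ko and knockdown. By the study's methods the RNA came from CD45+ CD11b+ F4/80+ macrophages, which were sorted out of tumors grown in Npm1+/+ and Npm1+/- mice. These mice, of both sexes, were 6 to 8 weeks old when the tumor cells were implanted, and older when the tumors were taken. The tumor cells came from the LLC line and not from these mice, and how the Npm1 allele was made is not analysed here. The labels give tumor tissue, TRIzol extraction and a small RNA protocol instead, and which description holds was not settled here. The labels name each library a separate biosample and do not say whether 1 or several mice gave it, so the spread may be partly technical. A figure legend of the study gives fewer mice than the 3 libraries per group for a part of this sequencing, so libraries of a group may share an animal, and the SDs and SEs below may be too small. Libraries held 36550775 to 38147320 counts, and a count of 0 leaves room for up to 3 counts, or 0.0716 to 0.0846 CPM (counts relative to library size, scaled by TMM). Npm1 was at 142, 380 and 381 CPM in wt and 441, 499 and 343 CPM in the libraries labelled ko, a log2 difference of 0.51 (SE 0.36) with overlapping groups, so the label ko is kept below for these libraries without a statement on Npm1 dose. Of the genes of the sorting markers, Ptprc (CD45) was at 1107 ± 247 CPM in wt and 1039 ± 135 CPM in ko (SD, n = 3 each), with overlap. Itgam (CD11b) was at 2853 ± 135 CPM in wt and 2033 ± 589 CPM in ko (log2 fold change -0.49, SE 0.22), without overlap. Adgre1 (F4/80) was at 242 ± 53.0 CPM and 172 ± 48.7 CPM (-0.49, SE 0.24), with overlap. Library wt 1 stood apart, at -108 on the first principal component (68.0% of the variance) against -4.54 to 52.0 for the others.

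Of the 6 members, 5 lie together with other Apol loci in a stretch of 368785 bases on mouse chromosome 15 (chr15:77388219-77757003, GRCm38, the build the submitters name as mm10), and all 6 are protein coding. Apol9a (chr15:77403789-77411135), Apol7c (chr15:77524852-77533316), Apol10b (chr15:77583819-77596125) and Apol8 (chr15:77747798-77757003) are on the minus strand, and Apol9b (chr15:77729039-77736382) is on the plus strand. Apol6 (chr15:77044729-77057106, plus strand) lies 331112 bases from the nearest of the other Apol genes and overlaps Mb, the myoglobin gene, on the other strand. How reads of such a pair were assigned is not given in the sources used here.

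The sequence before the transcription start is shown for the members because interferon acts there. In the windows given by RefSeq (GRCm38.p6), from 250 bases before the start to 50 after it, both strands were searched for the core of the interferon-stimulated response element, GAAANNGAAA. Apol7c, Apol9a, Apol9b and Apol10b held it, and Apol8 did not. For comparison, 3.44% of all 32851 promoter windows hold this core. The capitals below mark the core, read here on the opposite strand, in 30 bases of each window written 5′ to 3′ in the direction of the gene.
Apol7c, chr15:77533348-77533377, minus strand: atggggcTTTCTCTTTCCTTTTCtgctttg
Apol9a, chr15:77411117-77411146, minus strand: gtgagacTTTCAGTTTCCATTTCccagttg
Apol9b, chr15:77729028-77729057, plus strand: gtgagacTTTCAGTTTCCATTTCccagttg
Apol10b, chr15:77596110-77596139, minus strand: gaaattttacTTTCATTTTCgtgcactgag
In Apol7c, Apol9a and Apol9b the capitals hold 2 overlapping matches, which spanned bases -55 to -40, -59 to -44 and -37 to -22 from the most upstream annotated start of each gene. Apol9a and Apol9b have 2 annotated starts each, and from the other start the same matches spanned -105 to -90 and -86 to -71. In Apol10b there was 1 match, from base -4 to base 5, across the start itself. The windows of Apol9a and Apol9b were identical over these 30 bases, and over all 195 bases upstream that could be aligned. The GAS letters TTCNNNGAA, present in 8.30% of all windows, were in no window of these 5 genes. The CCAAT box was in the windows of Apol9a, Apol9b and Apol10b (37.4% of all windows), GAGGAA, an ETS core preceded by purines, was in that of Apol10b (28.3%), and TATAAA (13.6%) and GGGCGG (35.7%) were in none. A match is a run of letters and no measured binding, and a missing match says only that these letters are not in the window.

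The upstream stretches of Apol7c and Apol8 follow in full, because these were the most highly counted members and had opposite signs. The capitals again mark the interferon-stimulated core, of which the Apol8 stretch holds none.
Apol7c, chr15:77533317-77533565, minus strand: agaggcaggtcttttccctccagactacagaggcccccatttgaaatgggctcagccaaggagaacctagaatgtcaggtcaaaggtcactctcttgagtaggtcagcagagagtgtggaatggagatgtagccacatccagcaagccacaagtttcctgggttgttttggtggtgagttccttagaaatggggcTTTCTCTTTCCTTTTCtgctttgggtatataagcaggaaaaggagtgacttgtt
Apol8, chr15:77757011-77757260, minus strand: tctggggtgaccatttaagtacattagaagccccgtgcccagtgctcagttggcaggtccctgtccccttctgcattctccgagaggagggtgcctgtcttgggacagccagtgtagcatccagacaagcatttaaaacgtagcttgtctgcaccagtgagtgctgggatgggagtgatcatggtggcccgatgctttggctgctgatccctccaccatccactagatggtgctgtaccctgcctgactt

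Apol8 was counted 55, 21 and 40 times in wt libraries 1, 2 and 3, and 153, 209 and 132 times in the libraries labelled ko. The groups did not overlap, and the lowest ko library was above the highest wt library by more than the range within wt. In CPM the means were 1.07 ± 0.477 in wt and 4.16 ± 0.728 in ko (SD, n = 3 each), and the fitted log2 fold change was 1.96 (SE 0.40). Among the 13884 genes tested this was the 61st highest. Without wt 2, the lowest of the wt libraries, the estimate was 1.66, and without wt 1, the highest, it was 2.31. In the GENCODE transcripts, Apol8 shares no stretch of 50 bases with any other Apol gene. The deposited FPKM rest on 4864 bases for Apol8, and its GENCODE exons cover 2962, so counted sequence outside these exons was not compared. In bulk RNA, fewer cells of a type and less RNA per cell cannot be told apart, here and in all values below.

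Apol7c, a pore-forming member described in dendritic cells, where it acts on phagosome membranes, was counted 365, 48 and 298 times in wt and 95, 89 and 109 times in the libraries labelled ko. The ko values lay close together, and the wt values fell on both sides of them, with wt 1 and 3 high and wt 2 below every ko library. The means were 6.53 ± 4.63 CPM in wt and 2.51 ± 0.436 CPM in ko, with a log2 fold change of -1.38 (SE 0.64). This estimate turned on single wt libraries, with a value of -1.87 without wt 2 and -0.90 without wt 1. Of the stretches of 50 bases in the Apol7c transcripts, 11.9% also occur in other Apol transcripts, most of them in Apol7a (10.4%). Of the stretches of 100 bases, 2.7% do.

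Apol10b was counted 14, 13 and 16 times in wt and 30, 23 and 19 times in ko. The groups did not overlap, although ko 3 was 3 counts above wt 3. The means were 0.396 ± 0.0307 CPM and 0.611 ± 0.133 CPM, and the log2 fold change was 0.62 (SE 0.42). Without ko 1, the highest library, it was 0.43.

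Apol9a and Apol9b, a pair of near-identical interferon-induced genes, were low in all libraries. Apol9b was counted 2, 13 and 5 times in wt and 16, 12 and 18 times in ko. Library wt 2 was above ko 2, so the groups overlapped, and the log2 fold change of 1.08 (SE 0.70) became 2.01 without wt 2 and 0.65 without wt 1. Apol9a was counted 1, 10 and 2 times in wt and 11, 23 and 7 times in ko, again with wt 2 inside the ko range, and it did not pass the filter on low counts. Of the stretches of 100 bases, 40.0% of those in Apol9a and 36.7% of those in Apol9b occur in the other gene of the pair, so the split of counts between them is uncertain. Summed, the pair was counted 3, 23 and 7 times in wt and 27, 35 and 25 times in ko. This sum was chosen after the data were seen, and its groups did not overlap. The means were 0.307 ± 0.300 CPM and 0.735 ± 0.0867 CPM, and the log2 fold change was 1.26 (SE 0.70).

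Apol6, the counterpart of a human gene described in cell death, was counted 0, 1 and 0 times in wt and 1, 0 and 1 times in ko. It was under 3 counts in every library, so no difference was detectable at this depth and no fold is given.

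**Figure D1:**
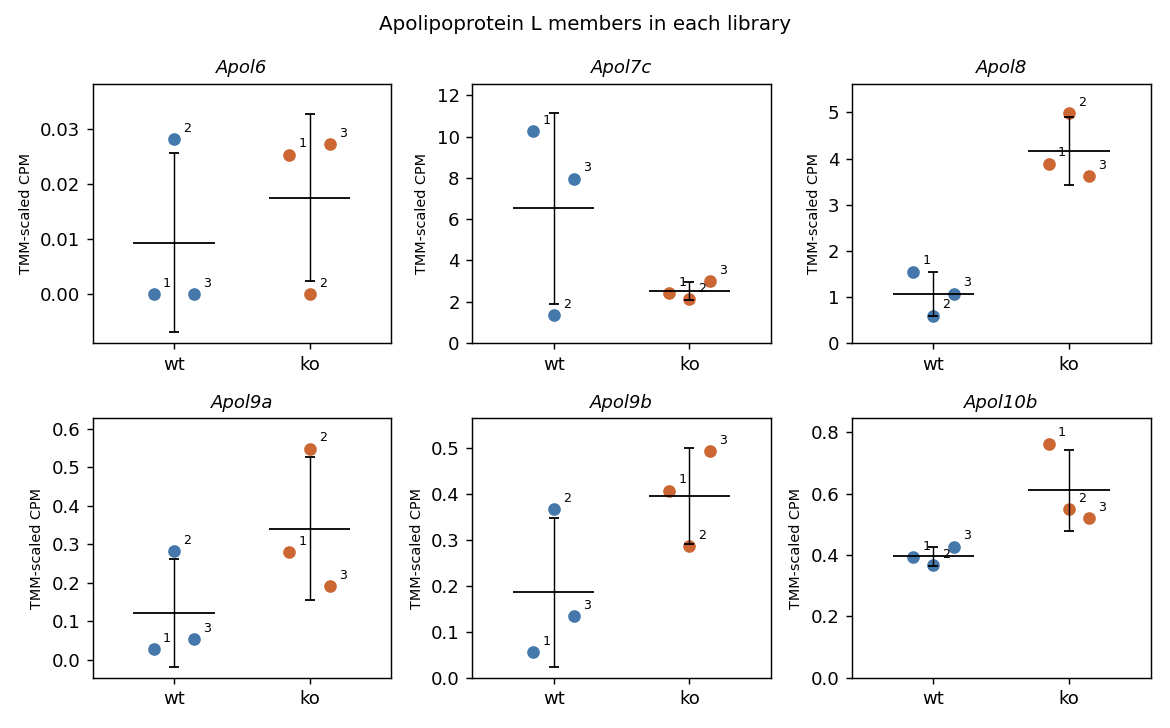
TMM-scaled CPM (vertical axis, a separate linear scale in each panel) of the 6 members in the 3 wt and 3 ko libraries, with the replicate number beside each point, the mean as a horizontal line and the SD as a bar. The ko points of Apol8 and Apol10b lie above all wt points, while in Apol7c, Apol9a and Apol9b wt 2 falls on the ko side of the other wt libraries, and Apol6 has at most 1 count in a library.

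Library wt 2 recurred across these members. In CPM it was the lowest wt library for Apol7c, Apol8 and Apol10b and the highest for Apol9a and Apol9b. With all 6 libraries, the groups did not overlap in 2 members, both higher in ko (Apol8 and Apol10b), beside 13.3% of all tested genes in that direction, and in 0 members in the lower direction, beside 12.6%. Without wt 2, the groups did not overlap in 5 members, of which 4 were higher in ko and Apol7c was lower, beside 23.2% and 20.7% of all tested genes. Nothing is read from these shares, since the members were selected on this contrast.

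The fit across all genes gave 0 genes with an adjusted p under 0.05 by edgeR's quasi-likelihood test (0%, smallest adjusted p 0.328), and hence 0 of the 4 members that passed the filter on low counts. Before adjustment, 2112 genes (15.2%) had a p under 0.05, of which 958 were higher and 1154 lower in ko, and 1 member, Apol8, was among them. DESeq2 called 36 of 13699 genes (0.263%), Apol8 included, as the single one of 4 members. The median log2 fold change was 0.85 over the 4 tested members and 0.02 over all tested genes. Apol9b, with 2, 13 and 5 counts in wt and 16, 12 and 18 in ko, passed the filter through the ko libraries, where it was higher. With at least 10 counts required in every library, the median over the 3 members left was 0.65. Nothing is read from these medians, since the members were chosen with this contrast in view.

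**Figure D2:**
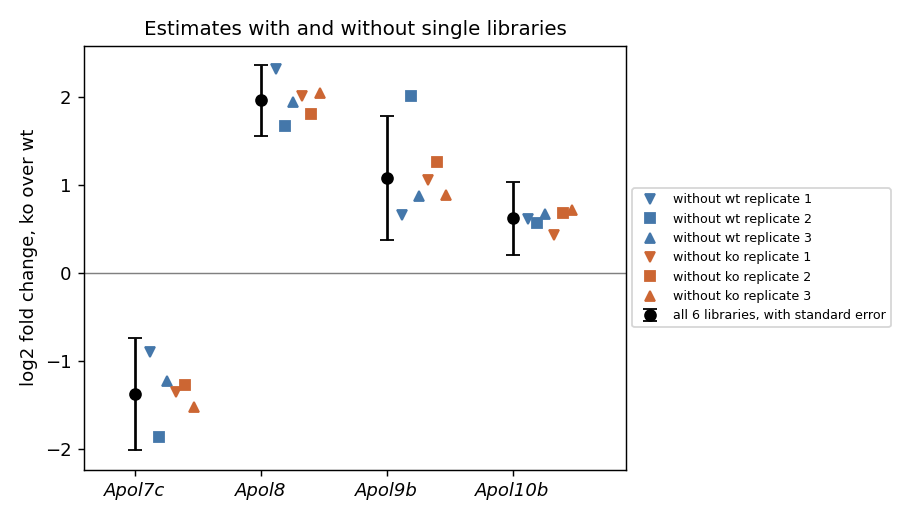
Log2 fold change of ko over wt (vertical axis) for the 4 members that passed the filter on low counts. Black points are the estimates from all 6 libraries with their standard errors, and colored symbols are the estimates with 1 library left out. Apol8 runs from 1.66 to 2.31 and Apol10b from 0.43 to 0.72, while Apol7c and Apol9b move most when wt 1 or wt 2 is left out, and no estimate crosses 0.

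The makeup of the member counts is given as a description, since the members were chosen with this contrast in view. Apol7c and Apol8 had opposite signs, so a difference in their shares and ratio follows in part from that choice. Other pairs of genes were not compared, and nothing is read from the separation of the groups. Apol7c took 83.5%, 45.3% and 82.5% of all member counts in wt 1, 2 and 3, and 31.0%, 25% and 38.1% in ko 1, 2 and 3. The share of Apol8 was 12.6%, 19.8% and 11.1% in wt and 50%, 58.7% and 46.2% in ko. In wt 2 the Apol7c share was above that of every ko library and the Apol8 share below, although its Apol7c count of 48 was the lowest of all. Within a library, the count of Apol8 divided by that of Apol7c was 0.151, 0.438 and 0.134 in wt and 1.61, 2.35 and 1.21 in ko. Summed over the 6 members, the counts were 437, 106 and 361 in wt and 306, 356 and 286 in ko, and these groups overlapped.

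Per length, in the deposited FPKM, the order of the members in wt was Apol7c, Apol8, Apol10b, Apol9b, Apol9a and Apol6. Apol7c stood at 2.98 ± 2.10 FPKM and Apol8 at 0.209 ± 0.0917 FPKM, with no overlap. Apol8, Apol10b (0.137 FPKM), Apol9b (0.0673 FPKM) and Apol9a (0.0426 FPKM) each overlapped with the neighbour in this order. The lowest Apol9a value (wt 1) and the highest Apol6 value (wt 2) each rested on 1 count, so no separation of Apol9a from Apol6 is read in wt. In ko, Apol7c at 1.26 ± 0.114 FPKM and Apol8 at 0.912 ± 0.236 FPKM overlapped. Below them came Apol10b at 0.235 FPKM, clear of Apol8, then Apol9b at 0.158 FPKM and Apol9a at 0.138 FPKM, which overlapped. The lowest ko value of Apol10b (0.1835 FPKM) was barely above the highest of Apol9b (0.1832 FPKM). With the lengths of the longest GENCODE coding transcripts, Apol10b and Apol9b overlapped in ko. The order at the top depends on the length used. The deposited FPKM rest on 4864 bases for Apol8, and the longest GENCODE coding transcript has 2801, with which Apol8 came to 1.58 FPKM in ko and Apol7c to 1.27 FPKM, again with overlap.

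Apart from the members, 5 Apol genes were counted. Apol7a was counted 4, 47 and 31 times in wt and 101, 95 and 47 times in ko, where wt 2 and ko 3 had the same count, and its log2 fold change was 1.43 (SE 0.73). Apol7e was counted 20, 8 and 55 times in wt and 59, 189 and 58 times in ko, without overlap, with a log2 fold change of 1.74 (SE 0.73, adjusted p = 0.328 in edgeR). Apol7e shares 58.4% of its stretches of 100 bases with other Apol transcripts, nearly all with Apol7b, which was counted 1, 0 and 0 times in wt and 0, 12 and 2 times in ko. Apol11b had 1, 15 and 3 counts in wt and 9, 6 and 2 in ko. Apol7d, annotated as an antisense transcript of Fn1 on chromosome 1 and not in the cluster, had 19, 12 and 9 counts in wt and 8, 3 and 9 in ko. The Apol7 genes therefore had differences of both signs: Apol7c was negative, while Apol7a and Apol7e were positive. Summed over Apol7a, Apol7b, Apol7c and Apol7e, the log2 fold change was -0.16 (SE 0.47).

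The promoter of Apol7e resembles that of Apol7c, with 93.0% identity over 185 aligned bases upstream of the annotated genes, and it also holds 2 overlapping matches to the interferon-stimulated core. The upstream bases of Apol7b and Apol7e were 99.5% identical. Apol11b held 1 match to the interferon-stimulated core and 1 to GAS. The windows of Apol7a and Apol7b held neither. Apold1, a gene named for its likeness to the family but on chromosome 6, had 121, 285 and 278 counts in wt and 260, 162 and 335 in ko, with a log2 fold change of 0.06 (SE 0.42).

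**Figure D3:**
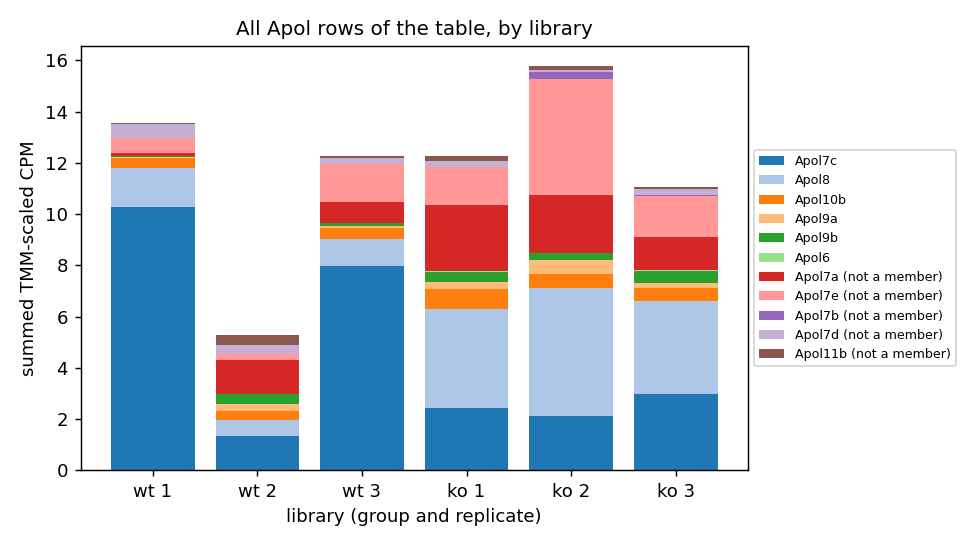
Stacked TMM-scaled CPM (vertical axis) of the 11 Apol genes of the table in each library (horizontal axis), colored by gene. Apol7c is the largest segment in wt 1 and wt 3, Apol8 is larger than Apol7c in all 3 ko libraries, the Apol7e segment is longer in ko 2 than in any other library, and wt 2 has the lowest total.

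Of the 26 tested genes within 500000 bases of a member, 12 had a positive and 14 a negative difference, 3 were higher and 4 lower in ko without overlap, beside 13.3% and 12.6% of all tested genes, and 4 had an unadjusted p under 0.05, beside 15.2%. Neither edgeR nor DESeq2 called any of them, and their median was -0.02. Myh9, which encodes a non-muscle myosin heavy chain and ends 3584 bases from Apol8, was at 1121 ± 173 CPM in wt and 794 ± 78.5 CPM in ko, a log2 fold change of -0.50 (SE 0.16, adjusted p = 0.328 in edgeR). Its groups did not overlap, and its sign was opposite to that of Apol8. Rbfox2, a splicing regulator that lies between Apol6 and the other Apol genes, was at 13.0 ± 8.81 CPM in wt and 28.0 ± 7.85 CPM in ko with overlapping groups and a log2 fold change of 1.10 (SE 0.59).

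The interferon genes were read beside the members because Apol genes are known interferon targets. Of 29 tested type I interferon-stimulated genes, edgeR called 0 (15 had an unadjusted p under 0.05, all lower in ko) and DESeq2 called 1, Rnf213, a ubiquitin ligase (DESeq2 adjusted p = 0.0342). Of the 29, 24 had a negative and 5 a positive difference, and 16 had non-overlapping groups, all lower in the libraries labelled ko, a direction in which 12.6% of all tested genes did not overlap. Their summed level was 2378 to 2555 CPM in wt and 1836 to 1989 CPM in ko, and the median log2 fold change was -0.37. Oas3, an antiviral sensor of double-stranded RNA, had the lowest estimate, at 86.0 ± 22.4 CPM in wt and 44.7 ± 9.19 CPM in ko (log2 fold change -0.94, SE 0.22). Next was Usp18, which removes ISG15 from proteins, with -0.83 (SE 0.18). The highest were Oasl1 with 0.33 (SE 0.41) and Eif2ak2, the RNA-activated kinase, with 0.18 (SE 0.32), both with overlapping groups. The median of this list was negative, as was the difference of Apol7c, while those of Apol8, Apol9b and Apol10b were positive. Nothing is read from these signs, since the members were chosen with this contrast in view, and no test was made of them.

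Of 16 tested GTPases induced by interferon-gamma, 9 were negative and 7 positive with a median of -0.14. Gbp10 was highest, at 0.265 ± 0.142 CPM in wt and 1.01 ± 0.776 CPM in ko (1.92, SE 0.68), followed by Gbp8 (0.63, SE 0.30), while Gbp2 (-0.67, SE 0.20) and Irgm2 (-0.66, SE 0.18) were lowest. Gbp10 was low, with 6, 7 and 16 counts in wt and 23, 80 and 20 in ko. It passed the filter through the ko libraries, and its ko mean leaned on ko 2. Among the ligands, Ifng, the gene of interferon-gamma, was counted 39, 37 and 165 times in wt and 265, 803 and 131 times in ko, and Ifnb1, the gene of interferon-beta, 328, 996 and 601 times in wt and 1064, 1366 and 1054 times in ko. The groups overlapped for Ifng, since ko 3 was below wt 3. For Ifnb1 the lowest wt library was wt 1, and in CPM wt 2 lay within the ko range. Their log2 fold changes were 2.17 (SE 0.78) and 0.73 (SE 0.36), and the other 5 ligands in the table did not pass the filter on low counts. Of 16 receptor and signalling genes, 13 were negative and 3 positive with a median of -0.32. Irf1 was 271 ± 39.3 CPM in wt and 394 ± 18.8 CPM in ko (0.54, SE 0.14) and Socs1, an inhibitor of the pathway, had 0.53 (SE 0.23). At the other end was the interferon-lambda receptor Ifnlr1 (-1.04, SE 0.47). None of these genes was called by edgeR.

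**Figure D4:**
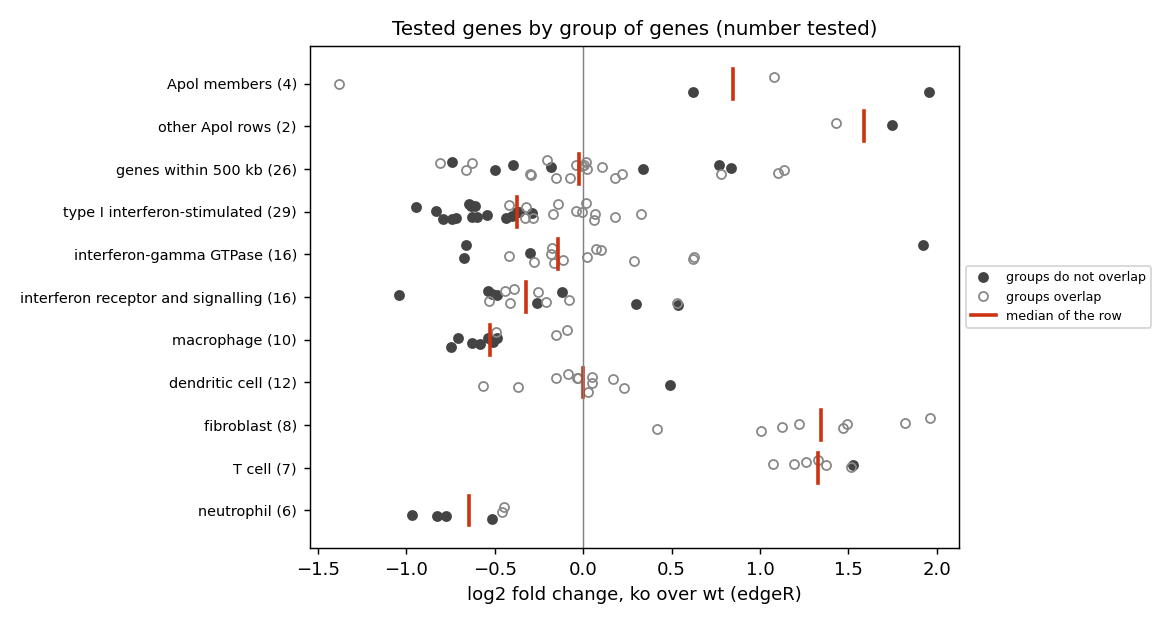
Log2 fold change of ko over wt (horizontal axis, edgeR) of each tested gene, in rows of genes with the number tested. Filled points have groups that do not overlap, open points have groups that overlap, and red lines mark the medians, which are 0.85 for the Apol members, -0.37 for type I interferon-stimulated genes, -0.53 for macrophage markers and 1.35 for fibroblast markers. The Apol median includes Apol9b, which passed the filter on low counts through the ko libraries.

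Markers of other cell types also differed between the libraries. All 10 macrophage markers had a negative difference and 7 did not overlap, all lower in ko, beside 12.6% of all tested genes, with a summed level of 6599 to 7154 CPM in wt and 3826 to 6136 CPM in ko and a median of -0.53. Csf1r (-0.74, SE 0.25) and Fcgr1 (-0.71, SE 0.20) were lowest and Ptprc (-0.09, SE 0.19) and Mertk (-0.16, SE 0.27) highest. All 8 fibroblast markers had a positive difference with overlapping groups and a median of 1.35. Their sum was 31.9, 488 and 301 CPM in wt and 717, 613 and 367 CPM in ko, so it was low in wt 1 and within the ko range in wt 2. Most of this sum was Col3a1, at 19.0, 426 and 245 CPM in wt and 604, 474 and 308 CPM in ko. Thy1 of this list was highest in ko 2 (69.7 CPM), as were the T cell markers. The T cell markers were positive in 7 of 7 (median 1.33, 22.4 to 102 CPM in wt and 79.3 to 220 CPM in ko), and the NK cell markers in 7 of 7 (median 0.95, 53.3 to 97.0 CPM and 84.0 to 217 CPM). Neutrophil markers were negative in 6 of 6 (median -0.65, 1694 to 1894 CPM and 730 to 1478 CPM). Of the 3 tested epithelial or carcinoma markers 2 were positive (35.2 to 137 CPM and 129 to 191 CPM), of 5 B cell markers 3 (6.26 to 36.1 CPM and 11.8 to 58.0 CPM), and of 4 endothelial markers 2 (29.5 to 36.8 CPM and 27.7 to 30.7 CPM). No marker of these lists was at 0 in all libraries. The part of these markers in the differences of Apol8, Apol10b, Apol9b and Apol7c was not tested.

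Dendritic cells are the cells in which Apol7c has been described. Their 12 markers had a median log2 fold change of 0.00, with 6 positive and 6 negative, and a summed level of 819, 548 and 678 CPM in wt and 743, 583 and 862 CPM in ko. The sum was lowest in wt 2, where Apol7c was also lowest. In wt 2 the B cell sum (6.26 CPM) and the NK cell sum (53.3 CPM) were also the lowest of all libraries, so this match is not particular to dendritic cells. Of the markers that define the dendritic cells that cross-present antigen, Xcr1 had 11, 20 and 29 counts in wt and 20, 38 and 7 in ko, and Clec9a had 60, 38 and 81 in wt and 48, 77 and 64 in ko. Cacnb3, a marker of mature dendritic cells, had 1822, 423 and 1194 counts in wt and 1450, 1432 and 1490 in ko. Its wt order was that of Apol7c, but its ko counts were above those of wt 3, unlike Apol7c. The same wt order held for Ccr7, Ccl22, Flt3, Cd209a and Zbtb46 of this list and for the macrophage marker Adgre1. It did not hold for Xcr1, Clec9a, Fscn1, Ccl17, Itgae and Siglech. Fscn1 had the highest estimate of the list (0.49, SE 0.12) and Flt3 the lowest (-0.57, SE 0.29).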

How the data were processed

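RNA was sequenced in 6 libraries, 3 labelled wt and 3 labelled ko. The files the authors deposited hold counts of reads per gene, in whole numbers, and FPKM, which are those counts divided by a length per gene and by the library total, with genes listed by symbol. The submitters' processing notes name mm10. The aligner, counter, strand setting and annotation are not given in the sources used here. Coordinates are from GENCODE (GRCm38) and promoter sequences from RefSeq (GRCm38.p6), both matched by symbol. Promoter entries matched 5 of the 6 members.

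Counts were fitted for all genes with edgeR 4.0.16 in R 4.3.3 (filterByExpr with a minimum count of 10, TMM, glmQLFit and glmQLFTest, Benjamini-Hochberg over 13884 genes, threshold 0.05, group as the single term), after a test of the script on simulated data. The log2 CPM used a prior count of 2. The alternatives were DESeq2 1.42.0, limma 3.58.1 on log2 of the deposited FPKM plus 1 or 0.1, other scalings and filters, the replicate block and each library left out. With 3 against 3 libraries the smallest exact p is 0.1, so single values were compared by overlap. Depth of 36550775 to 38147320 counts and the limit of 3 counts cover counting error only, since no molecular identifiers are named.

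The members and gene lists were chosen with earlier results of these data known. Genes named are the members, other Apol genes and Apold1, the 2 highest and 2 lowest tested genes of each list, the 5 genes most like the mean member profile, Npm1 and neighbours within 500000 bases. The neighbours named, and Rnf213, Itgam, Adgre1 and the dendritic cell markers other than Fscn1 and Flt3, were picked after their values were seen. For cell type lists farther from the members no gene is named, apart from Col3a1 and Thy1, which were also picked with their values seen. Ccrl2, also in that rule, is left to the closing section, and 1 gene of the rule is not reported here.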

Additional observations from a re-analysis of the deposited data

How the results depend on the processing

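The estimates of Apol7c, Apol8 and Apol10b kept their sign in 15 alternatives. That of Apol9b did so in 14, and in a sum with Apol9a, but it could not be fitted with at least 10 counts in every library. Apol6 and Apol9a had an estimate only without a filter (0.70 and 1.46). DESeq2 called 36 genes, and 78 without wt replicate 1, where edgeR called 0 in each fit; the cause was not tested. On log2 of FPKM plus 1 the median of the members fell to 0.12, with 0.66 for Apol8, as a pseudocount of 1 exceeds most of these values. The type I interferon-stimulated median moved from -0.37 to -0.21 with plus 1 and -0.22 with plus 0.1, and the receptor and signalling median from -0.32 to -0.10 and -0.16. With plus 0.1 the median of all genes was 0.16 (main 0.02). Members without overlap ranged from 2 to 5 as single libraries were left out. There were 5 without wt replicate 2, where the shares of all tested genes also rose, from 13.3% to 23.2% higher and from 12.6% to 20.7% lower in ko. There were 3 without ko replicate 2, for which no share of all genes was taken. Nothing about the members is read from this range. The mean ratio of Apol8 to Apol7c in ko was 0.74 in deposited FPKM and 1.27 with GENCODE lengths.

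Leaving out 1 library gave 0.63 (without wt replicate 1) to 1.11 (without wt replicate 2) for the median of the members, -0.43 to -0.37 for type I interferon-stimulated genes, -0.25 to 0.05 for interferon-gamma GTPases, -0.40 to -0.22 for receptors and signalling, 0.92 to 2.06 for fibroblast, -0.73 to -0.39 for macrophage and -0.16 to 0.10 for dendritic cell markers. The sign of the dendritic cell median changed in 10 and that of the GTPases in 4 of 15 alternatives.

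Same-numbered libraries did not deviate together (correlations -0.241, 0.0605 and -0.337), so the numbers were not taken to pair them. With the replicate block edgeR called 0 genes (1606 at an unadjusted p under 0.05) and gave -1.0 for Apol7c, 2.03 for Apol8, 1.29 for Apol9b and 0.60 for Apol10b. Depth limits Apol6, Apol9a and Apol9b, at 23 counts or fewer per library.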

Other observations

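Among apolipoproteins of other families, 3 were tested. Apoe, the main apolipoprotein made by macrophages, was at 541 ± 31.5 CPM in wt and 331 ± 74.8 CPM in the libraries labelled ko (SD, n = 3 each), without overlap and with a log2 fold change of -0.71 (SE 0.18, adjusted p = 0.328 in edgeR). Apoc1, with 18, 29 and 7 counts in wt and 16, 21 and 6 in ko, and Apof, with 33, 6 and 16 in wt and 15, 28 and 30 in ko, overlapped. Ccrl2, the gene the study followed, was at 1162 ± 332 CPM in wt and 640 ± 158 CPM in ko, a log2 fold change of -0.86 (SE 0.26, adjusted p = 0.328 in edgeR).

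The 5 tested genes whose profile over the 6 libraries was most like the mean of the 4 tested members were Gm54227 (Pearson r 0.985, Spearman rho 0.829), Gm54232 (0.983 and 0.943), Gm33273 (0.979 and 0.943), Gm40827 (0.978 and 0.771) and LOC118568621 (0.977 and 1). Their mean levels were 0.128 to 1.29 CPM in wt and 0.313 to 2.35 CPM in ko. These points share 6 libraries, 2 groups and their depth, 89 tested genes had an r above 0.9, and with 6 points such values are a description. No likeness of function or control is read from them.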
